A study of Mus musculus with 4 samples.

Results

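The genes described here encode the first steps of T-cell receptor signalling and the proteins that restrain them, compared between Ly49+ and Ly49- memory-phenotype CD8 T cells. They were 44 genes chosen by name, 23 activators and 21 inhibitors, of 18193 genes measured, and each was read through its brightest probe set. Of the 44, 43 were measured, and Lck is not analysed here. RNA from sorted spleen cells of wild-type B6 mice was hybridised to 4 Affymetrix expression arrays, 2 for each group. Ly49+ cells carried the sort phenotype CD44+CD122+Ly49+ and are named CD8+ Treg in the labels. Ly49- cells carried CD44+CD122+Ly49- and are named conventional memory cells. All mice were wild type and untreated as far as the labels say. Nothing in the labels ties the replicates to separate mice, and the p-values therefore reflect only how far these samples spread, which may be technical. The question is how gene expression differs between these CD8 populations, here for the machinery that reads the antigen receptor.

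When the receptor binds antigen, Src-family kinases phosphorylate the CD3 and zeta chains and Zap70 is recruited to them. Zap70 then phosphorylates the adaptors LAT and SLP-76 (gene Lcp2), which assemble the enzymes that raise calcium, activate Ras and activate NF-kappaB. The inhibitors act at each of these steps: Csk and phosphatases reverse the kinases, Cbl proteins mark signalling proteins for degradation, diacylglycerol kinases remove the lipid that activates Ras, and Ras GTPase-activating proteins switch Ras off.

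Most of this machinery was read at nearly the same level in both populations. Of the 43 members, 1 was higher in Ly49+ cells, the phosphatase gene Ubash3b, and 2 were lower, the adaptor genes Grap2 and Themis, while 40 did not pass (limma, Benjamini-Hochberg adjusted p under 0.05 over all genes). Over all genes 4.0% passed, 1.93% higher and 2.07% lower. Log2 fold changes (Ly49+ minus Ly49-, on the log2(intensity + 16) scale) ran from -0.28 to 0.32 over the members, and 31 of the 43 were smaller than 0.1 in size. The median was -0.03 over the members and -0.04 over all genes. For the 40 members that did not pass, the 95% intervals of the log2 fold change reached at most 0.41 in size, and for 35 of them the interval lay within a 1.2-fold difference in either direction. Member intensities lay between 1029 and 18528, above the highest of the Bacillus control probe sets (70.3), so none of these comparisons rests on a dim probe set.

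Array medians lay between 188.5 and 190.4 and correlations between arrays on the log2 scale between 0.996 and 0.998. Precision is limited by there being 2 arrays a group. The CD8 T-cell markers Cd8a, Cd8b1, Cd3d, Cd3e, Cd3g and Cd247 summed to 99574 and 99446 on the Ly49+ arrays and to 101032 and 99956 on the Ly49- arrays, and none of the 6 passed, with 1 lower at an unadjusted p under 0.05. Of 10 myeloid markers, 6 were higher and 2 lower in Ly49+ cells, with sums of 9247 and 9789 against 6907 and 6909.6. The 6 higher were Csf1r (3758 and 4242 against 2635 and 2746), Lyz2 (1129 and 1051 against 502 and 477), Cd68, Adgre1, Cd14 and Fcgr1, all above the highest Bacillus control on every array. S100a8 and S100a9 were the 2 lower, and Itgam (31.9 to 38.8) and Csf3r (51.9 to 55.0) lay below that control. Of 7 NK-cell markers, 5 were higher and none lower, with sums of 26887 and 26831 against 22941 and 21136.5, the higher ones being Klrb1a, Fcgr3, Tyrobp, Fcer1g and Cd244a. Klrd1 did not pass, and Ncr1 lay between 34.9 and 44.8, below that control. Of 7 B-cell markers, 1 was higher, Cd22 (2191 and 2361 against 1082 and 1095), and 1 lower, Cd79b (2050 and 2020 against 2488 and 2462). Ighm did not pass and read 13508 and 14523 against 14415 and 15442, through a probe set of a kind open to cross-hybridisation. Of 4 dendritic-cell markers 1 was higher, Xcr1. The 3' to 5' ratio of Actb, a measure of RNA integrity, was 1.26 to 1.29 on the Ly49+ and 1.34 to 1.37 on the Ly49- arrays. The part of these markers and of the RNA ratio in the results below was not tested, and in bulk RNA fewer cells of a type and less RNA per cell cannot be told apart.

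The promoters of the 3 genes that passed are shown because these are the members whose transcript level differed. The sequences are the 250 bases before the first start that the RefSeq table (build GRCm38.p6) lists for each gene, 5' to 3' on the gene's strand. Capitals mark GGAAA on either strand, the core of sites for NFAT, the transcription factor family that calcineurin activates downstream of the receptor.
Ubash3b (chr9:41158063-41158312, minus strand): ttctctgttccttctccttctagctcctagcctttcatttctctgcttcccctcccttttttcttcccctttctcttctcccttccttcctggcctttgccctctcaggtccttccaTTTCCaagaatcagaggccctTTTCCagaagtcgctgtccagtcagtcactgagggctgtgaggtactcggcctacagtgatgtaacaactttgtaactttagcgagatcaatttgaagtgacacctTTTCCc
Themis (chr10:28668110-28668359, plus strand): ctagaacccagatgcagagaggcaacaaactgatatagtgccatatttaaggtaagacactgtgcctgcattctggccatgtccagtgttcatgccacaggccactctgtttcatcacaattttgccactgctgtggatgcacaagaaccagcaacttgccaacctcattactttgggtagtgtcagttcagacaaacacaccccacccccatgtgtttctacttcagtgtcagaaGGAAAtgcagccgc
Grap2 (chr15:80623233-80623482, plus strand): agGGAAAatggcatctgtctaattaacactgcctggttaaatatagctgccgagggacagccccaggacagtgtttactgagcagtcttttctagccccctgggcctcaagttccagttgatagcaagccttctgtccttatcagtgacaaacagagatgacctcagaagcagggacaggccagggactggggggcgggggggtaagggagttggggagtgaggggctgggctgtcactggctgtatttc
GGAAA occurred 3 times in the Ubash3b window, on the strand opposite the gene, where the printed letters read TTTCC, and 1 time each in the Themis and Grap2 windows, on the strand of the gene. At 5 letters it is common: 55.6% of 27025 genes in the table held it in the same window, as did 22 of the 34 members listed there. The core of sites for the Ikaros family, to which Helios belongs, was searched as TGGGAA on both strands; it can overlap GGAAA by 4 letters. It was not found in these 3 windows and was present in those of 9 of the 34 listed members and 21.5% of all genes. A match is a description of the letters and not of binding.

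Ubash3b encodes STS-1, a phosphatase that dephosphorylates Zap70 and so limits signalling from the receptor. Its intensity was 4022 and 3651 on the Ly49+ arrays and 3153 and 3001 on the Ly49- arrays. Both Ly49+ values lay above both Ly49- values, and the gene was 1.24-fold higher (log2 fold change 0.32 ± 0.06 SE, adjusted p = 0.0245). Its other probe sets moved the same way, at 1994 and 1915 against 1485 and 1496 (log2 fold change 0.39) and at 1889 and 1782 against 1489 and 1459 (0.31). With every probe set tested on its own and adjusted over all of them, which called 2.14% of probe sets, these 3 probe sets had adjusted p of 0.0533, 0.0245 and 0.0612, the brightest first. On the same arrays 6 of 10 myeloid and 5 of 7 NK-cell markers were higher and 2 myeloid markers were lower, and their part in the rise of Ubash3b was not tested. Its relative Ubash3a, which encodes the weaker phosphatase STS-2, read 1839 and 2051 against 1909.8 and 1937 and differed by 0.01 (95% interval -0.14 to 0.17, adjusted p = 0.948). Leaving out Ly49+ replicate 1 gave Ubash3b an adjusted p of 0.221, leaving out Ly49+ replicate 2 gave 0.0523, leaving out Ly49- replicate 1 gave 0.113 and leaving out Ly49- replicate 2 gave 0.213. Its adjusted p was 0.127 when the spread was estimated with no trend on the expression level.

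Themis encodes a T-cell adaptor that binds Grb2 and the phosphatase SHP-1 and is needed for T-cell development in the thymus. Its intensity was 9758 and 9687 on the Ly49+ arrays against 10941.5 and 11059 on the Ly49- arrays. The arrays of a group differed by less than the groups did, and the gene was lower in Ly49+ cells by 11.6% (log2 fold change -0.18 ± 0.04 SE, adjusted p = 0.0312). The size depended on which probe set was read. The second brightest read 3428 and 3348 against 4952 and 4524 (log2 fold change -0.48, adjusted p = 0.00882 among all probe sets), the third 1867 and 1825 against 2549 and 2243 (-0.37, 0.0519), and the fourth 1583 and 1640.5 against 1687 and 1555 (-0.01, 0.980). The brightest had an adjusted p of 0.0626 in that test. So 3 of the 4 Themis probe sets had groups that did not overlap, all of them lower, and the fourth had overlapping groups. Over all genes, each read by its brightest probe set, 35.2% had lower Ly49+ values with no overlap. Leaving out Ly49+ replicate 1 gave Themis an adjusted p of 0.1999, leaving out Ly49+ replicate 2 gave 0.233, leaving out Ly49- replicate 1 gave 0.1098 and leaving out Ly49- replicate 2 gave 0.161. Its adjusted p was 0.225 with no trend of the spread.

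Grap2 encodes GADS, the adaptor that couples SLP-76 to LAT. It read 1685 and 1724 on the Ly49+ arrays and 2011 and 2139.6 on the Ly49- arrays, with no overlap of the groups, and was 1.22-fold lower in Ly49+ cells (log2 fold change -0.28 ± 0.06 SE, adjusted p = 0.0440). Its second probe set was dim, between 83.4 and 90.8 on the 4 arrays, near the highest Bacillus control, and its groups overlapped. Leaving out Ly49+ replicate 1 gave Grap2 an adjusted p of 0.264, leaving out Ly49+ replicate 2 gave 0.193, leaving out Ly49- replicate 1 gave 0.112 and leaving out Ly49- replicate 2 gave 0.238. Its adjusted p was 0.119 with no trend of the spread, 0.0902 after quantile normalization, 0.312 when its probe sets were averaged and 0.0806 among all probe sets.

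**Figure D1:**
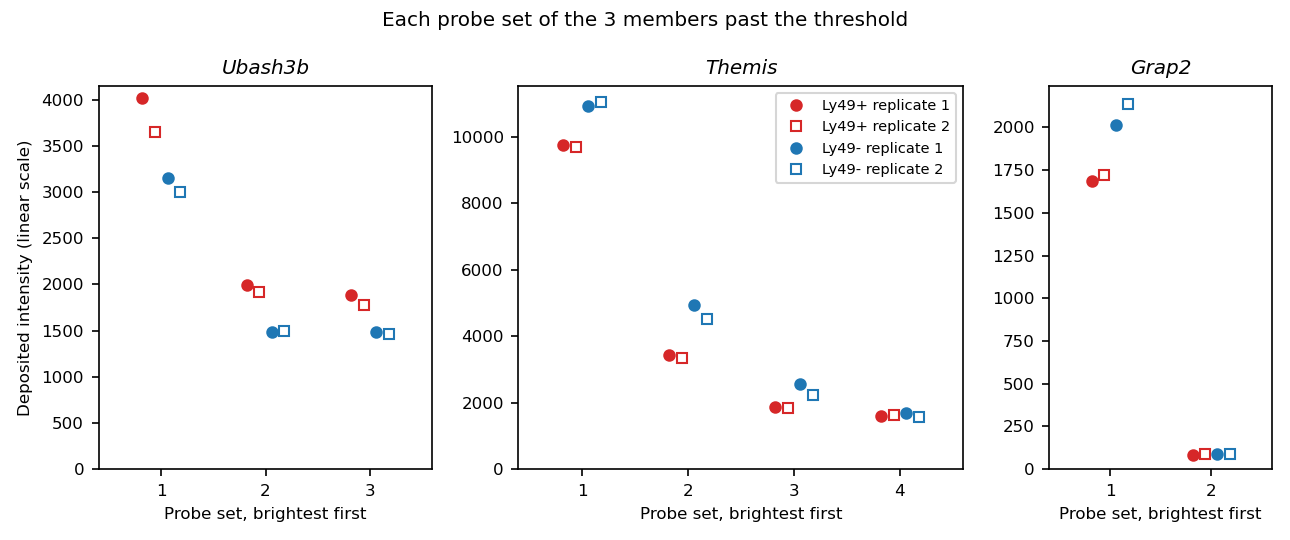
Deposited intensity (linear scale, from 0) of each probe set of Ubash3b, Themis and Grap2 on each of the 4 arrays, with the brightest probe set of each gene at the left. Ly49+ values (red) lie above Ly49- values (blue) in all 3 Ubash3b probe sets and below them in the first 3 Themis probe sets and the first Grap2 probe set, while the fourth Themis and the second Grap2 probe set overlap.

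Among the activators, the kinases at the top of the cascade showed no difference past the threshold. Fyn, a Src-family kinase, read 13704 and 14045 on the Ly49+ arrays and 13922 and 13021 on the Ly49- arrays (log2 fold change 0.04, 95% interval -0.05 to 0.14). Zap70, the kinase recruited to the phosphorylated receptor chains, read 5499 and 5811 against 5849.9 and 5752 (-0.04, interval -0.14 to 0.07), through a probe set of a kind open to cross-hybridisation with other transcripts, and its other 2 probe sets differed by -0.02 and -0.07. Txk, a Tec-family kinase, differed by 0.10 (interval -0.04 to 0.23). In all 3 the groups overlapped.

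Read by their brightest probe sets, the adaptors were all lower in Ly49+ cells in their point values, as were 11882 of all 18193 genes. The differences passed the threshold in 2 of 6. Beside Grap2 and Themis, Lat read 12172 and 12107 against 12719 and 13199 (log2 fold change -0.09, adjusted p = 0.223), and Lcp2, the gene of SLP-76, read 8691 and 8827 against 9144 and 9382 (-0.08, adjusted p = 0.323). Grb2, which brings the Ras activator Sos1 to LAT, differed by -0.09 (adjusted p = 0.403), and Nck1, which links the receptor to the actin cytoskeleton, by -0.11 (adjusted p = 0.423). In these brightest probe sets the groups did not overlap for any of the 6 adaptors, where 35.2% of all genes had lower Ly49+ values with no overlap. The genes were sorted into these steps after their values had been seen, so the count is a description. The second probe set of Lcp2 differed by 0.08 and that of Grb2 by 0.02, opposite in sign to the brightest. The third probe set of Nck1 also went the other way, by 0.18 (720 and 699 against 572 and 682), while its second differed by -0.05. With the mean of its probe sets Nck1 differed by 0.00.

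The enzymes that act after the adaptors, read by their brightest probe sets, gave values of the same sign with none past the threshold. Of all 18193 genes, 11882 were below 0. Sos1, a Ras exchange factor, had the largest difference of these, at 2649 and 2944 against 3175 and 3385 (log2 fold change -0.23 ± 0.07 SE, adjusted p = 0.102). Rasgrp1, the diacylglycerol-dependent Ras exchange factor, differed by -0.05, Plcg1, the phospholipase that makes diacylglycerol and the calcium-releasing inositol phosphate, by -0.04, and Vav1, an exchange factor for Rac, by -0.09, with adjusted p of 0.588, 0.584 and 0.346. For Sos1, the other 4 probe sets differed by 0.09, -0.06, -0.21 and -0.11. The dimmer probe sets of Plcg1 differed by 0.00 and 0.27, the latter at 227 and 237 against 185 and 195. Those of Rasgrp1 differed by -0.09, -0.14 and -0.18 and that of Vav1 by -0.02.

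In the NF-kappaB branch the members went both ways. Malt1, the protease that works in a complex with Bcl10, read 12922.5 and 12718 against 11837 and 10722, all Ly49+ values being higher (log2 fold change 0.19 ± 0.05 SE, adjusted p = 0.0807). It passed after quantile normalization (adjusted p = 0.0411), and of its other probe sets 1 differed by 0.16 and 1 by -0.07. Bcl10 differed by 0.05 and Prkcq, the protein kinase C that starts this branch, by -0.07, with adjusted p of 0.635 and 0.323. The Bcl10 probe set was of a kind open to cross-hybridisation, and without such probe sets Bcl10 differed by 0.13 (adjusted p = 0.311).

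None of the calcium and NFAT genes passed, and all 6 differed by 0.06 or less in size. Stim1, the calcium sensor of the endoplasmic reticulum, read 1747 and 1769.97 against 1749 and 1773 (log2 fold change -0.00, 95% interval -0.14 to 0.13), and Orai1, the channel it opens, differed by -0.04 with a wider interval of -0.23 to 0.16. Ppp3ca, a catalytic subunit of calcineurin, differed by -0.03, Nfatc1 by 0.01, Nfatc2 by 0.06 and Nfatc3 by -0.04, with adjusted p between 0.535 and 0.958. The Nfatc3 probe set was of a kind open to cross-hybridisation, and without such probe sets Nfatc3 differed by 0.00. The second, dim probe set of Orai1 read 112 and 111 against 148 and 145 (-0.35, adjusted p = 0.174 among all probe sets). The 4 dimmer probe sets of Nfatc1 all differed upward, by 0.08 to 0.38, the largest at 824 and 889.97 against 615 and 694 (adjusted p = 0.102 among all probe sets). Those of Nfatc2 went both ways, from -0.36 (289 and 334 against 381 and 427, adjusted p = 0.194 among all probe sets) to 0.23.

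**Figure D2:**
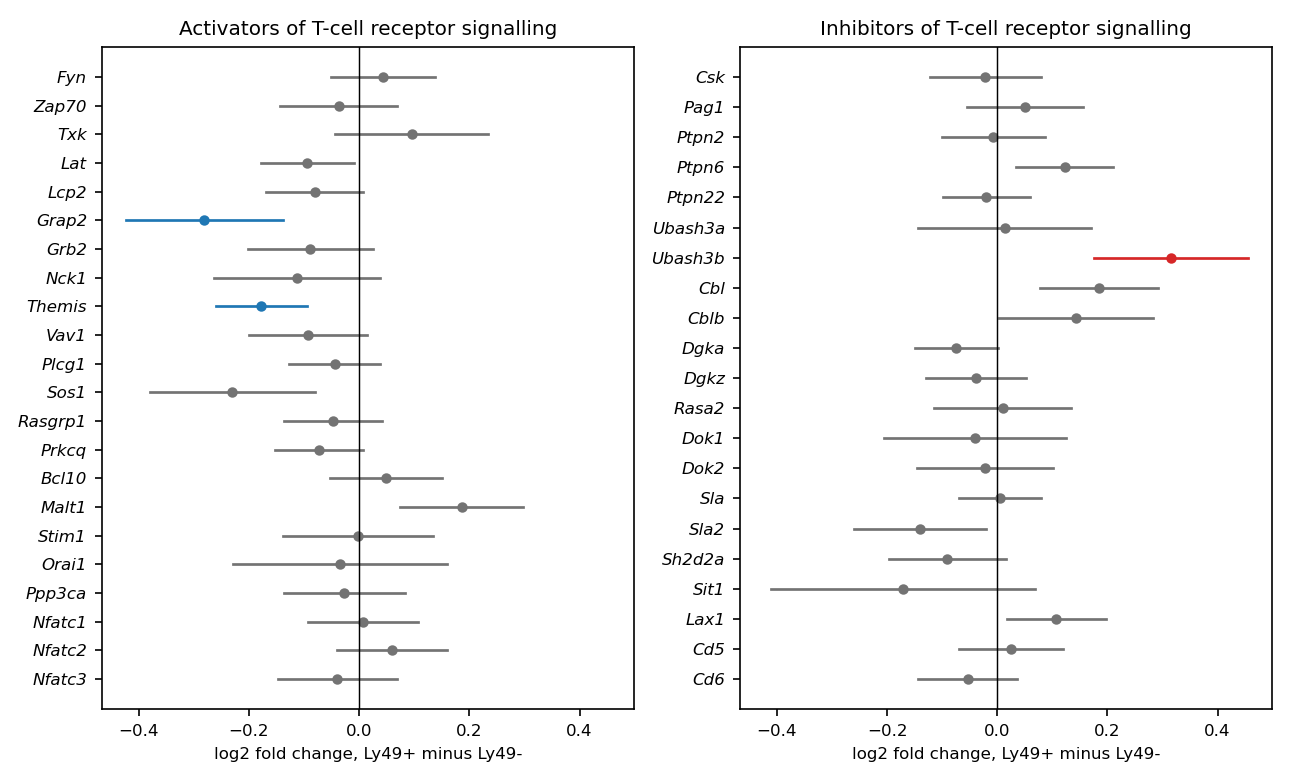
Log2 fold change (Ly49+ minus Ly49-) with its 95% interval from limma for the 22 measured activators (left) and 21 inhibitors (right), in the order of the signalling steps. The intervals of most genes span 0; the colored genes are those past the adjusted threshold, Ubash3b (red, higher) and Grap2 and Themis (blue, lower).

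Of the 21 inhibitors, 1 was higher (Ubash3b), none was lower and 20 missed the threshold. At an unadjusted p under 0.05, which 18.1% of all genes reached (5.07% higher and 13.0% lower), 5 inhibitors were higher and 1 was lower. Csk, the kinase that places the inhibitory phosphate on Src-family kinases, differed by -0.02, and Pag1, the membrane protein that anchors it, by 0.05, with adjusted p of 0.859 and 0.627. The dimmer probe sets of Pag1 differed by -0.12, 0.00 and -0.13. Among the phosphatases, Ptpn6, which encodes SHP-1, read 11379 and 11260.1 against 10188.5 and 10608 (log2 fold change 0.12 ± 0.04 SE, adjusted p = 0.132), with no overlap of the groups. Its second probe set differed by 0.02. Ptpn22, a partner of Csk, differed by -0.02 (95% interval -0.10 to 0.06), and Ptpn2, which acts on Src-family and Janus kinases, by -0.01 (-0.10 to 0.09). The dimmer probe sets of Ptpn2 differed by 0.06, 0.15 and 0.16.

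The ubiquitin ligase genes had higher values in Ly49+ cells without passing. Cbl read 7752 and 8111 against 7181 and 6766 (log2 fold change 0.19 ± 0.05 SE, adjusted p = 0.0714), and its other 2 probe sets differed by 0.11 and 0.12. Cblb, which sets the need for costimulation, read 11962.5 and 11758 against 11549 and 9992 (0.14, adjusted p = 0.269), and its other 2 probe sets differed by 0.03 and 0.05. The groups did not overlap for either gene, where 13.2% of all genes had higher Ly49+ values with no overlap. For Cblb the spread between the Ly49- arrays exceeded the difference between the group means.

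The diacylglycerol kinases and the brakes on Ras were close to equal. Dgka read 17489 and 17246 against 18044 and 18528 (log2 fold change -0.07, adjusted p = 0.287) and Dgkz differed by -0.04, with its second probe set at -0.14. Rasa2, a Ras GTPase-activating protein, differed by 0.01, and Dok1 and Dok2, adaptors that recruit such proteins, by -0.04 and -0.02.

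The inhibitory adaptors and surface receptors were mixed in sign. Lax1, a transmembrane adaptor, read 7853 and 7974 against 7331 and 7357 (log2 fold change 0.11, adjusted p = 0.193), and Sla2, an adaptor that promotes receptor loss through Cbl, read 4913 and 5268 against 5456 and 5759 (-0.14, adjusted p = 0.206). Sit1, a transmembrane adaptor that binds SHP-2, had the widest interval of the members that did not pass, at -0.17 (-0.41 to 0.07), with 3621 and 3110.3 against 4232 and 3374. Sla, the relative of Sla2, differed by 0.00, and Sh2d2a, which encodes the Lck-binding adaptor TSAd, by -0.09. The dimmer probe sets of Sla differed by 0.17, 0.15 and 0.09. The first of them read 2566 and 2467 against 2308 and 2156 (adjusted p = 0.246 among all probe sets). The receptors Cd5 and Cd6, which dampen signalling at the contact with the presenting cell, differed by 0.02 and -0.05, with 95% intervals of -0.07 to 0.12 and -0.14 to 0.04.

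Activators and inhibitors were set against each other by their medians. The median log2 fold change was -0.04 for the 22 activators, of which 16 were below 0, and -0.01 for the 21 inhibitors, of which 11 were below 0. Over all genes the median was -0.04, with 11882 of 18193 genes below 0. The activator median minus the inhibitor median was -0.035. On the single arrays, the activator median minus the inhibitor median, after each gene was centred on its mean over the arrays, was -0.02 and -0.01 in Ly49+ and 0.03 and 0.02 in Ly49- cells. Groups that did not overlap were found for 13 of 22 activators, 2 higher and 11 lower, and for 12 of 21 inhibitors, 5 higher and 7 lower, where over all genes 48.4% did not overlap, 13.2% higher and 35.2% lower. No test was made of the contrast, since the members were chosen with earlier results known. With the mean of each gene's probe sets the contrast was -0.0020, and leaving out 1 array moved it to -0.02 when that was Ly49+ replicate 1, to -0.02 for Ly49- replicate 1 and to -0.05 for Ly49- replicate 2.

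**Figure D3:**
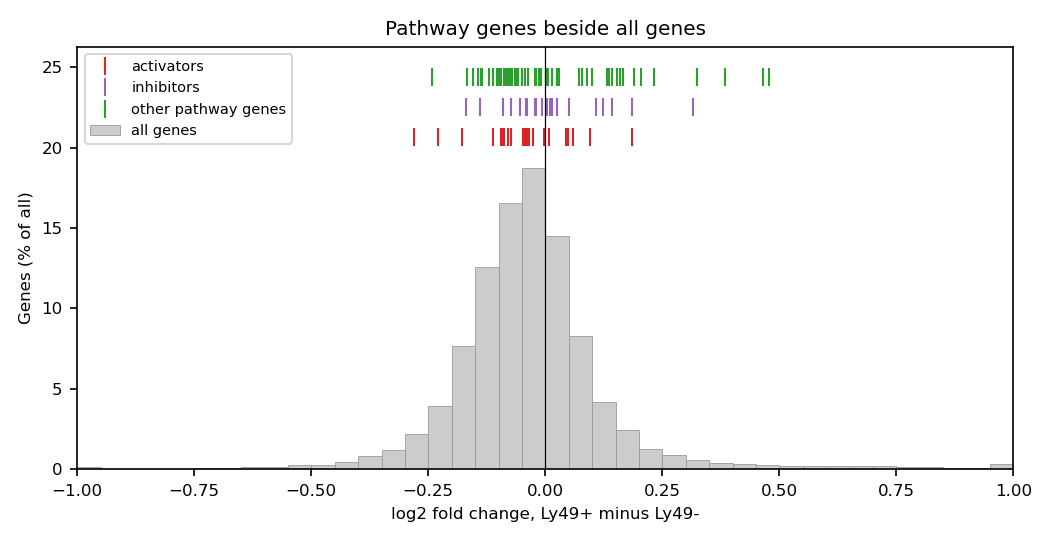
Share of all 18193 genes in each bin of log2 fold change (grey bars, with values beyond the axis held in the end bins), and single genes as ticks above for activators (red), inhibitors (purple) and other pathway genes (green); the height of the tick rows has no scale. The ticks run from -0.28 to 0.48, most of them near 0 and a few, among them Trat1 (0.48), Rnf128 (0.46), Egr3 (0.38) and Ubash3b (0.32), in the upper tail, with the activator median at -0.04 and the inhibitor median at -0.01.

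A further list of 68 genes of the pathway, of which 57 were measured, held 1 that passed, and its median was -0.01. Vav2, a relative of Vav1, was 1.25-fold higher in Ly49+ cells, at 1149.8 and 1110.1 against 908 and 891 (log2 fold change 0.32 ± 0.07 SE, adjusted p = 0.0469). Its other 2 probe sets lay between 10.4 and 42.9, below the highest Bacillus control. Leaving out Ly49+ replicate 1 gave Vav2 an adjusted p of 0.291, leaving out Ly49+ replicate 2 gave 0.193, leaving out Ly49- replicate 1 gave 0.139 and leaving out Ly49- replicate 2 gave 0.220. Its adjusted p was 0.0600 with a pseudocount of 64, 0.0740 with no trend of the spread and 0.636 when its probe sets were averaged. The largest differences in the list did not pass. They were Trat1, a transmembrane adaptor of the receptor complex, at 0.48 (adjusted p = 0.0873), Rnf128, an anergy-associated ubiquitin ligase read near the control level, at 0.46 (0.0541), Egr3, a receptor-induced transcription factor, at 0.38 (0.132), and Vav3 at 0.32 (0.0735). The Vav3 probe set was of a kind open to cross-hybridisation. Of the list, 8 genes were higher and 7 lower at an unadjusted p under 0.05, where over all genes 5.07% were higher and 13.0% lower.

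For 5 of 6 genes that receptor signals induce, the arrays of a group differed by more than the group means did, with Egr3 the exception. Dusp5, a phosphatase of ERK, read 14315 and 9665 on the Ly49+ arrays and 12971 and 7726 on the Ly49- arrays, and Tnfaip3, which encodes the NF-kappaB inhibitor A20, 13498 and 8067 against 11440.1 and 7324. Dusp2 read 8116 and 4658 against 6958 and 4919, and Egr2 2292 and 1664 against 2003 and 1431. In both groups the array numbered 1 was higher for each of Egr2, Egr3, Dusp2, Dusp5, Dusp6 and Tnfaip3, by 1.17-fold to 1.74-fold in Ly49+ and by 1.28-fold to 1.68-fold in Ly49- cells. None of the 6 passed the comparison of the groups in the fit with no term for the replicate number, with log2 fold changes between 0.07 and 0.38.

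**Figure D4:**
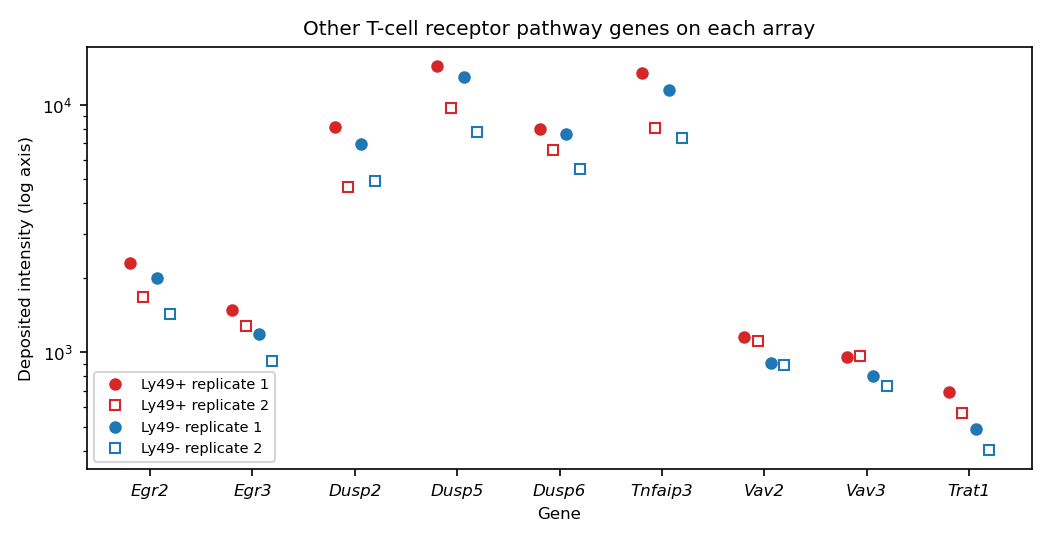
Deposited intensity on each array (log axis) for 6 receptor-induced genes (Egr2 to Tnfaip3) and for Vav2, Vav3 and Trat1, with circles for replicate 1 and open squares for replicate 2. For the 6 induced genes the circles lie above the squares of the same color, while for Vav2 the red Ly49+ symbols (1149.8 and 1110.1) lie above the blue Ly49- symbols (908 and 891).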

How the data were processed

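Sorted CD8 T cells gave 4 samples, 2 per group; the titles supplied the groups and replicate numbers. RNA was isolated with an RNeasy kit and labelled with biotin for Affymetrix arrays, per the labels' protocols. The authors deposited linear intensities, a unit inferred from the values, with quartiles within 0.04 (log2) of each other across arrays. How they were normalized is not stated in the labels.

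Of 45101 probe sets, the 34945 with a single gene in the platform annotation were used, and the brightest was kept for each of 18193 genes. Intensities were taken as log2(intensity + 16) without further normalization and tested with limma 3.58.1 in R 4.3.3 (package data.table, version 1.17.8), with group as the only term, a trend of the spread on the level, 2 residual and 6.70 prior degrees of freedom, and Benjamini-Hochberg adjustment over all genes at 0.05. The test was tried on simulated data drawn with the spread that the fit itself estimated. That trial does not show how the test performs on these arrays. The members and lists were chosen with earlier results of these data known. All measured members are named, with the further pathway genes that passed and the 4 others with the largest differences; the 6 receptor-induced genes plotted were chosen after their values were seen. Alternatives were another normalization, pseudocounts, filters, probe-set rules, spread estimates, a replicate block and each array left out.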

Additional observations from a re-analysis of the deposited data

How the results depend on the processing

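The 3 members that passed all missed the threshold when any 1 array was left out, and fewer of all genes passed then too. The lone array of a group was in that fit assumed to vary like the other group. Leaving out 1 array gave log2 fold changes of 0.25 to 0.38 for Ubash3b, -0.19 to -0.17 for Themis and -0.33 to -0.24 for Grap2. Members that passed numbered 0 without a trend of the spread (6 at an unadjusted p under 0.05 by limma). In that fit 371 of all 18193 genes passed, against 728 in the main comparison. No member passed when probe sets were tested singly and the brightest was read (10 at an unadjusted p under 0.05). There 2.14% of all probe sets passed, among them the second probe sets of Ubash3b and Themis. This alternative was chosen after seeing the data. In the main comparison 11 of the 43 members and 18.1% of all genes were at an unadjusted p under 0.05. Quantile normalization also gave 3, with Malt1 in place of Grap2, and the mean of probe sets gave 2. Of all genes 651 and 535 passed under these 2 settings. Of the other pathway genes, 1 passed in the main comparison, 2 after quantile normalization and 2 with the mean of probe sets. With a robust spread 2 of them passed, where 871 of all genes did. Without a trend 0 passed (8 at an unadjusted p under 0.05, against 15 in the main comparison). Vav2 missed the threshold when any 1 array was left out. The replicate numbers are shared by the groups, but the labels do not say what they mark. Deviations of the 2 arrays numbered 1 from their group means correlated at 0.24 across genes. With the number as a replicate block 1527 of all 18193 genes passed, against 728 in the main comparison. Under that block 6 members passed (Sos1, Malt1 and Cbl in addition) and 9 of the other pathway genes (Cd28, Trat1, Vav2, Vav3, Itpr3, Rnf128, Egr3, Dusp5 and Tnfaip3). The activator minus inhibitor contrast was -0.0020 with the mean of probe sets and ranged from -0.0535 to -0.0160 with 1 array left out, and it moved by less than 1 SD of the spread between arrays under the other settings, among them one added after seeing the data that left out Themis and Sh2d2a, which have been described in both roles. No called gene reversed. Of the members that did not pass, up to 7 changed sign under 1 setting. The largest log2 fold change of such a member in the main comparison was 0.112 in size.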
